A study of Rattus norvegicus with 4 samples.

Results

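The AMPA receptor subunit genes Gria1, Gria2, Gria3 and Gria4 were read by 10 of the 1263 probe sets other than controls on a rat oligonucleotide array, and they were found by their exact gene symbol in the probe table. Gria1 and Gria4 had 3 probe sets each, and Gria2 and Gria3 had 2 each. These are 4 of the 720 genes that a probe set of the array names alone. The study hybridised total RNA from samples labelled brain, adrenal medulla to 4 arrays, 1 for each of 4 groups: digested at day 7, undigested at day 7, digested at day 1 and undigested at day 1. The days come from a time course. The labels give no strain, age or treatment beyond these words, and they do not say what was digested or how many animals or cultures stand behind an array. With 1 sample in every group there is no replicate error to compare a difference with, and the number of arrays limits the precision.

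AMPA receptors are ion channels opened by glutamate, and they carry most of the fast excitatory transmission of the brain. Each channel is a tetramer drawn from the subunits GluA1 to GluA4, the products of these genes. The subunit make-up sets how the channel conducts: channels that hold GluA2, whose transcript is edited in the pore region, let little calcium through, while channels without it are permeable to calcium. Chromaffin cells of the adrenal medulla, in contrast, are driven mainly by acetylcholine acting on nicotinic receptors. Transcripts of each subunit are spliced into flip and flop forms, and the probe table does not say which forms a probe set reads. Probe sets ending in _s_at are of a kind that can match more than 1 transcript.

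Signals are linear intensities, scaled here to give every array an equal median with control probe sets left aside. Scaled signals under 51.8, the 20th percentile over the 4 arrays, were raised to that floor before log2 was taken. Probe sets whose mean log2 signal reached the median of all, a signal of 229, form the analysed set of 632. Of the 10 AMPA receptor probe sets 2 were in it, M36419_s_at for Gria2 and S94371_g_at for Gria4. The other 8 lay in the dimmer part of the array, and 6 of these had at least 1 array under the floor. The table holds no detection call, so a signal above the floor is not by itself above background. Levels of different probe sets are not set against each other, since each probe set binds its target with its own strength.

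On the arrays as a whole, several facts move with the groups. Transcripts added at hybridisation, read by 9 probe sets, had a median log2 of -1.35 on the digested day 7 array relative to the mean of the others, against 0.33 to 0.57 on the other 3 arrays. The beta-actin ratio of 3′ over 5′ signal, which goes up where labelled RNA is shorter, was 2.66 on the undigested day 7 array and 1.35 to 1.48 on the others. The same ratio was 1.18 against 1.01 to 1.1 for GAPDH and 1.4 against 1.05 to 1.31 for hexokinase. Of 11 neuron markers 10 were measured, with summed signals of 276223 in the digested and 334891 in the undigested day 7 sample, and 403728 in the digested and 369803 in the undigested day 1 sample. Without Snap25, the gene with the largest signal in the list, these sums were 152442 and 224040 at day 7 and 197069 and 182332 at day 1, so that the undigested sum was then higher at day 7. By gene, each by its brightest probe set, 0 of the 10 were higher at day 7 in digested and 7 in undigested samples. The median log2 day differences were -0.38 and 0.46. Of all 386 genes in the analysed set, 204 were higher at day 7 in digested and 237 in undigested samples, with medians of 0.05 and 0.19. The 7 of 10 thus stood near the background. Of 8 chromaffin cell markers 4 were measured (Th, Dbh, Ddc and Penk), with sums of 251809 and 385539 at day 7 and 303361 and 280219 at day 1, in the same order of states. Without Th, the tyrosine hydroxylase gene of catecholamine cells, they were 88184 and 128814 at day 7 and 70011 and 58587 at day 1, higher at day 7 in both states. By gene, 3 of the 4 were higher at day 7 in digested and 4 in undigested samples, beside the 204 and 237 of 386 given above. Pnmt, the enzyme that makes adrenaline, had no probe set under its symbol. Of 7 astrocyte markers 5 were measured, with sums of 6888 and 5726 at day 7 and 11997 and 11596 at day 1. Glul made up most of this, and without it the sums were 761 and 1046 at day 7 and 681 and 911 at day 1, a difference in the other direction, while Vim was under the floor on every array. Of 7 oligodendrocyte and Schwann cell markers 4 were measured (sums from 2956 to 4266). Of 6 microglia and macrophage markers 2 were measured, Il1b and Itgam, and neither was in the analysed set. Their sums were 318 and 365 at day 7, and 74.8 and 203 at day 1. Of the Il1b probe sets, M98820_g_at read 172 and 300 at day 7 and 14 and 22.7 at day 1, while E01884cds_s_at stayed between 46.4 and 56.8. Itgam read 93.9 and 18.4 at day 7 and 7.92 and 123 at day 1, in part under the floor. The part of all these markers and array measures in the differences below was not tested. In these bulk samples, fewer cells of a type and less RNA per cell cannot be told apart.

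Gria2, the subunit that limits calcium entry, was the 1 gene of the 4 with no signal under the floor in any of its probe sets. Its 2 probe sets were also more alike in profile than those of any other gene of the family, which had values at the floor. Its brighter probe set, M36419_s_at, had scaled signals of 1122 in the digested and 1251 in the undigested day 7 sample, and 771 in the digested and 962 in the undigested day 1 sample. Both day 7 samples were thus above both day 1 samples, and at each day the digested sample was the lower of the pair. The day 7 signal was 1.46-fold that of day 1 in the digested samples (log2 0.54) and 1.30-fold in the undigested samples (log2 0.38). The log2 difference between digested and undigested samples was -0.16 at day 7 and -0.32 at day 1. Its dimmer probe set, M38061_at, read 241 and 309 in the digested and undigested day 7 samples, and 156 and 210 in the digested and undigested day 1 samples. The order of the 4 arrays was the same as for M36419_s_at, highest in the undigested day 7 sample and lowest in the digested day 1 sample. The log2 day differences of M38061_at were 0.62 in digested and 0.56 in undigested samples, and its digestion differences were -0.36 at day 7 and -0.43 at day 1. Once each was centred on its own mean, the log2 profiles of the 2 Gria2 probe sets differed by a root mean square of 0.10 over the 4 arrays.

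The Gria2 differences can be set beside the spread between probe sets of 1 gene. For 125 genes with several analysed probe sets, the log2 difference varied between probe sets of a gene with a pooled SD of 0.41 for the day in digested samples and 0.52 in undigested samples. For digestion the SD was 0.52 at day 7 and 0.32 at day 1. For M36419_s_at the day difference in digested samples was above its SD, the day difference in undigested samples and the digestion difference at day 7 were below theirs, and the digestion difference at day 1 was equal to it. For M38061_at both day differences and the digestion difference at day 1 were above theirs, and the digestion difference at day 7 was below. M38061_at is itself outside the analysed set from which the SD was taken. The SD compares probe sets on the same arrays and holds no error between samples. All 8 Gria2 differences, 4 for each of its probe sets, kept their sign under the 6 ways of scaling and flooring, the main one included. A raised floor or an added offset cannot reverse a sign, so these ways were no test of it. Over the 6 ways, the day difference of M36419_s_at ran from 0.45 to 0.58 in digested and from 0.15 to 0.38 in undigested samples. Its digestion difference ran from -0.29 to -0.01 at day 7 and from -0.49 to -0.30 at day 1.

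Gria4, which in the brain is found in fast-spiking inhibitory neurons and in glia among other cells, had the day difference of greater size in the analysed set. S94371_g_at read 354 in the digested and 348 in the undigested day 7 sample, against 184 in the digested and 133 in the undigested day 1 sample. The 2 day 7 samples were almost level, and both were above both day 1 samples. Both day 1 signals lay under 229, so the probe set is in the analysed set only through its day 7 signals, and its day difference is not independent of that filter. The signal was 1.93-fold higher at day 7 in digested samples (log2 0.94) and 2.62-fold higher in undigested samples (log2 1.39). The digestion difference was 0.03 in log2 at day 7, a sign that turned under 1 of the 6 settings (range -0.02 to 0.17), and 0.47 at day 1. Relative to the median of the analysed set, which scaling can move, the log2 day differences of S94371_g_at were 0.90 and 1.22, and those of the Gria2 probe set M36419_s_at were 0.50 and 0.21, for digested and undigested samples in that order.

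With 1 array per group, an additive limma fit of digestion and day takes as a probe set's own error how far its digestion difference at day 7 departs from that at day 1. This gives 1 residual degree of freedom, to which limma added 7.76 prior ones estimated over all analysed probe sets, so most of the error is borrowed from other probe sets. The fit cannot see variation common to both samples of 1 day. In this fit over the 632 analysed probe sets, the day difference of Gria4 S94371_g_at was 1.17 in log2 (SE 0.31, unadjusted p = 0.00505), with an adjusted p of 0.198 after Benjamini-Hochberg adjustment in limma. The signal was higher at day 7 in 2 of 2 pairs of arrays. Without the filter, through which this probe set passed by its day 7 signals, the limma adjusted p was 0.447. For Gria2 M36419_s_at the day difference was 0.46 (SE 0.31) in the filtered fit, with a limma adjusted p of 0.542. Neither passed 0.05, and 1 of the 632 probe sets did, with a limma adjusted p of 0.0283. For digestion, the limma adjusted p of both probe sets was 0.999, with differences of 0.25 for Gria4 and -0.24 for Gria2 in log2 (SE 0.31 each). No probe set passed for digestion in limma, and 42 had an unadjusted p under 0.05.

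**Figure D1:**
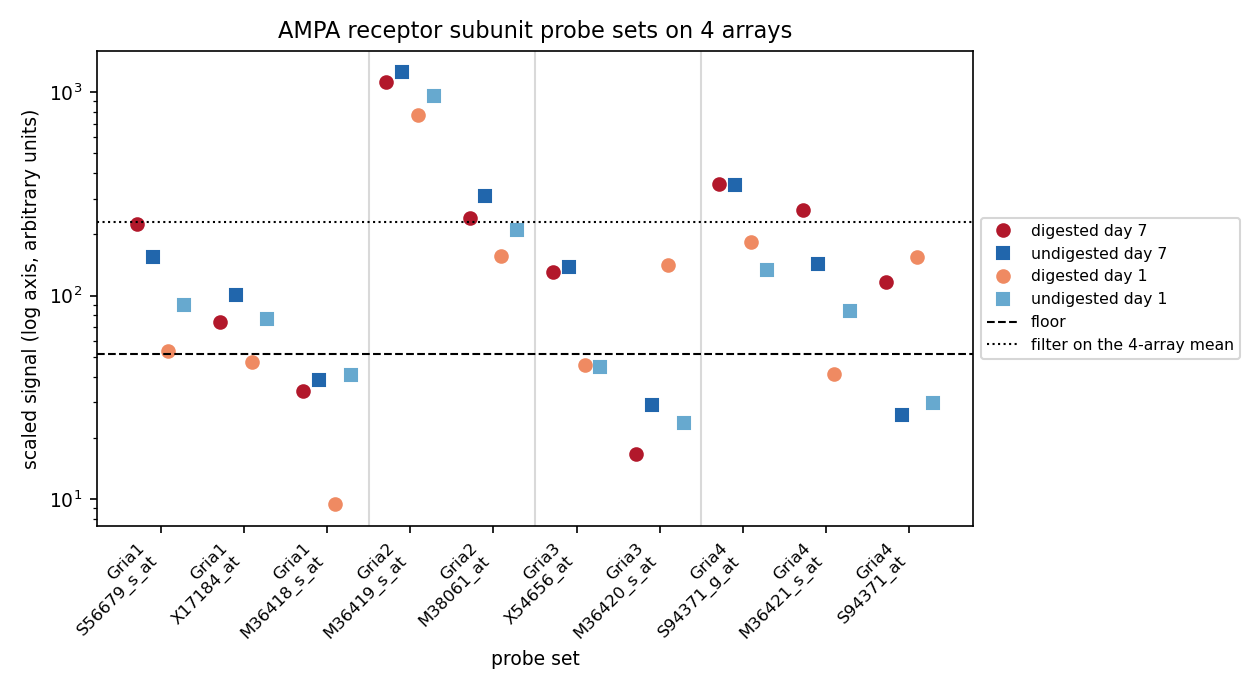
Scaled signal (log axis, arbitrary units) of the 10 AMPA receptor probe sets on the 4 arrays, 1 point per array and no error, since each group has 1 array. The dashed line is the floor of 51.8 and the dotted line the level of 229 that the 4-array mean must reach for the analysed set; only the Gria2 probe set M36419_s_at and the Gria4 probe set S94371_g_at reached it.

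The other Gria4 probe sets did not follow S94371_g_at in all respects. M36421_s_at read 263 and 143 in the digested and undigested day 7 samples, and 41.0 (under the floor) and 84.3 in the digested and undigested day 1 samples. It was higher at day 7 in both states, like S94371_g_at, but with log2 differences of 2.34 in digested samples, measured from the floor, and 0.76 in undigested samples. S94371_at, designed on the same database entry as S94371_g_at, read 117 and 25.9 at day 7 and 154 and 29.6 at day 1, digested first. Here both digested samples were high and both undigested samples lay under the floor, so the arrays above the floor split by digestion and not by day. Measured from the floor, the digested signal was 2.27-fold higher at day 7 (log2 1.18) and 2.96-fold higher at day 1 (log2 1.57). These sizes hang on the floor: with it raised to the 40th percentile, both differences were 0.00. Over the 3 probe sets of Gria4, the log2 day difference in digested samples thus ran from -0.39 to 2.34.

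Gria1, the subunit best known for its part in synaptic plasticity, was read by dim probe sets throughout. S56679_s_at read 224 and 154 in the digested and undigested day 7 samples, and 53.7 and 89.7 in the digested and undigested day 1 samples. Both day 7 samples were above both day 1 samples, while the digested sample was the higher of the pair at day 7 and the lower at day 1. Its day difference was 2.06 in log2 in digested samples, from a signal near the floor of 51.8, and 0.78 in undigested samples. With the floor raised to the 40th percentile, these were 0.47 and 0.00. X17184_at read 73.8 and 101 at day 7 and 47.1 (under the floor) and 76.4 at day 1, digested first. Its day differences of 0.51 and 0.41 and its digestion differences of -0.46 at day 7 and -0.56 at day 1 had the signs of Gria2, at signals within 2-fold of the floor. The third probe set, M36418_s_at, read between 9.42 and 40.9, under the floor on all 4 arrays, and gave no measured difference.

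Gria3 was likewise dim, and its probe sets disagreed. X54656_at read 131 and 138 in the digested and undigested day 7 samples, against 45.8 and 44.8 in the digested and undigested day 1 samples, both of which lay under the floor. The day 7 pair and the day 1 pair were each close together and did not overlap. From the floor, the day difference was 1.34 in log2 in digested and 1.42 in undigested samples, and the digestion difference at day 7 was -0.07. M36420_s_at read 16.6, 29.0 and 23.7 in the digested day 7, undigested day 7 and undigested day 1 samples, all under the floor, and 142 in the digested day 1 sample alone. That single reading set its log2 differences of -1.45 for the day in digested samples and 1.45 for digestion at day 1.

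Over the family, 7 of the 10 probe sets were higher at day 7 in both digestion states, 0 were lower in both or opposite, and the other 3 had a day difference of 0 at the floor in at least 1 state. The day comparisons in digested and undigested samples share no array. Of all 1263 probe sets 28.7% were higher at day 7 in both states, of the 632 analysed 37.2% and of the 631 dimmer ones 20.1%, while 18.9% of all were lower in both and 35.3% were opposite. The 7 probe sets cover all 4 genes, 2 each for Gria1, Gria2 and Gria4 and 1 for Gria3, and probe sets of a gene share a target, so they are not 7 independent readings. The median log2 day difference of the 10 was 0.58 in digested and 0.48 in undigested samples, beside 0.00 and 0.04 over all probe sets. No test was made of this count. With the floor at the 40th percentile, the undigested day difference of S56679_s_at and M36421_s_at and both day differences of X17184_at and X54656_at were 0, which left the pattern to M36419_s_at, M38061_at and S94371_g_at.

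**Figure D2:**
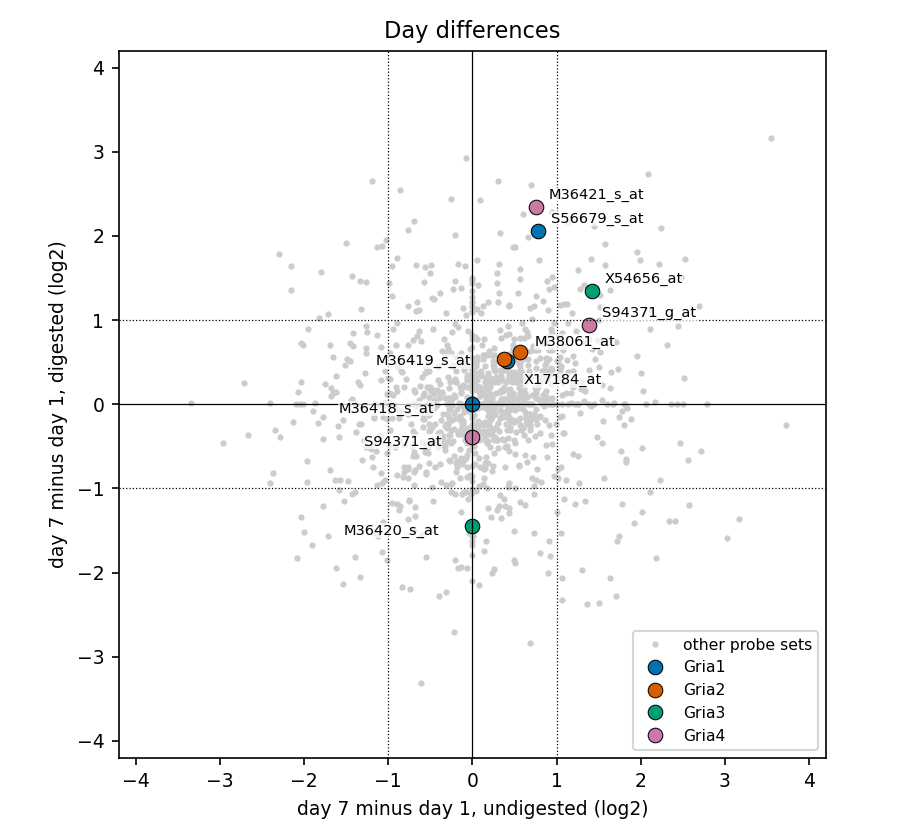
Log2 difference of day 7 minus day 1 in undigested samples (x axis) and digested samples (y axis) for the AMPA receptor probe sets (coloured by gene) and the other probe sets (grey), with dotted lines at 2-fold. 7 of the 10 lie to the upper right of zero, and the others lie at 0 on the x axis because their undigested signals were under the floor.

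Day differences were next counted at 2-fold. In digested samples 0 of the 2 analysed probe sets passed 2-fold, where 8.07% of the analysed set did. In undigested samples 1 of 2 did, where 13.3% of the analysed set did. That 1 is S94371_g_at, which the filter let in through its day 7 signals, so nothing is read from this count. Counting all 10 probe sets, 3 were at least 2-fold higher and 1 at least 2-fold lower in digested samples, where 19.2% of all probe sets passed either way. In undigested samples 2 were higher and 0 lower, where 22.5% passed. X54656_at of Gria3 was the 1 of 10 past 2-fold upwards in both states, a mark that 2.14% of all probe sets reached.

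Digestion gave no shared direction. Of the 10 probe sets 2 were higher in the digested sample at both days (S94371_g_at and S94371_at, both of Gria4), and 3 were lower at both (both of Gria2 and X17184_at of Gria1). Among all probe sets 22.4% were higher and 15.5% lower at both days. A further 2 ran in opposite directions, S56679_s_at and M36421_s_at, as did 44.2% of all probe sets. Past 2-fold was 1 of the 10 at day 7, where 21.6% of all probe sets passed, and 2 at day 1, where 16.5% passed, so these counts stood near the background. None of the 2 analysed probe sets passed 2-fold for digestion, where 11.4% of the analysed set did at day 7 and 3.48% at day 1. S94371_at was past 2-fold upwards at both days, as were 1.9% of all probe sets. With the floor at the 40th percentile its digestion differences were 0.00 at both days.

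**Figure D3:**
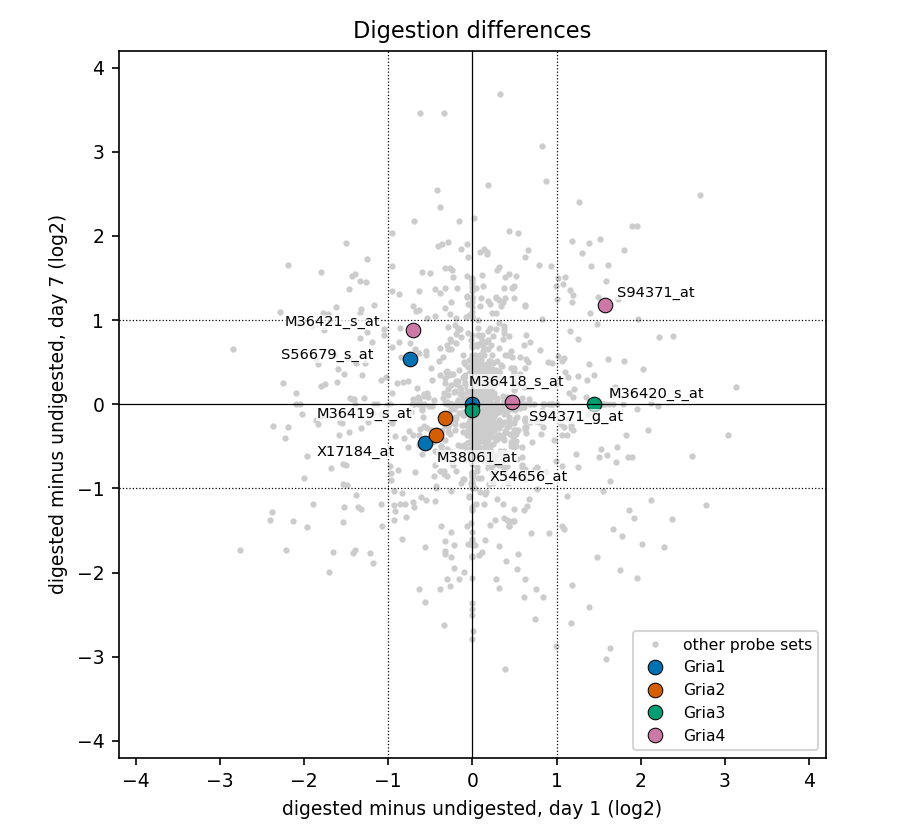
Log2 difference of digested minus undigested samples at day 1 (x axis) and day 7 (y axis) for the AMPA receptor probe sets (coloured by gene) and the other probe sets (grey), with dotted lines at 2-fold. The Gria2 probe sets lie at the lower left of zero, S94371_at of Gria4 at the upper right, and S56679_s_at and M36421_s_at at the upper left.

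The balance between subunits can be followed as the change, between arrays, of the log2 ratio of 2 probe sets within an array. Unless a value lies at the floor, this change does not depend on the constant by which each array was scaled, and it shows unequal change, not which subunit changed. By the brighter probe sets of Gria4 and Gria2, the ratio of Gria4 to Gria2 at day 7 was 1.32 times that at day 1 in digested samples (log2 0.40) and 2.02 times in undigested samples (log2 1.01). Against the dimmer Gria2 probe set the changes were 0.32 and 0.83. The Gria4 probe set here, S94371_g_at, is in the analysed set only through its day 7 signals, so nothing further is read from these day changes. Between digested and undigested samples, the same ratio was higher in the digested sample by a log2 of 0.18 at day 7 and 0.79 at day 1. With the mean over every probe set of each gene in place of the brightest, the changes for the day were 0.38 and 0.25, and those for digestion 0.96 at day 7 and 0.82 at day 1. The change was positive in each of the 4 comparisons by both measures, but each array enters 2 of the comparisons, so these are not 4 separate readings, and no error is known for them. The size of the change and its sign hung on the choice of Gria4 probe set. The log2 day differences of S94371_at, -0.39 in digested and 0.00 in undigested samples, were below the 0.54 and 0.38 of M36419_s_at. For digestion at day 1, M36421_s_at had -0.70 against -0.32 for M36419_s_at. S94371_at had 2 arrays and M36421_s_at 1 array at the floor, and the second measure takes in both.

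For the dim subunits the balance was not settled. By S56679_s_at, the ratio of Gria1 to Gria2 had a day change of 1.52 in log2 in digested and 0.40 in undigested samples, and of 0.27 and -0.07 by the mean over all probe sets. By X54656_at, whose day 1 signals lay under the floor, the ratio of Gria3 to Gria2 had a day change of 0.80 in digested and 1.04 in undigested samples, and of -0.64 and 0.24 by the mean over all probe sets. Thus 2 of these 4 changes turned sign with the choice of probe set.

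**Figure D4:**
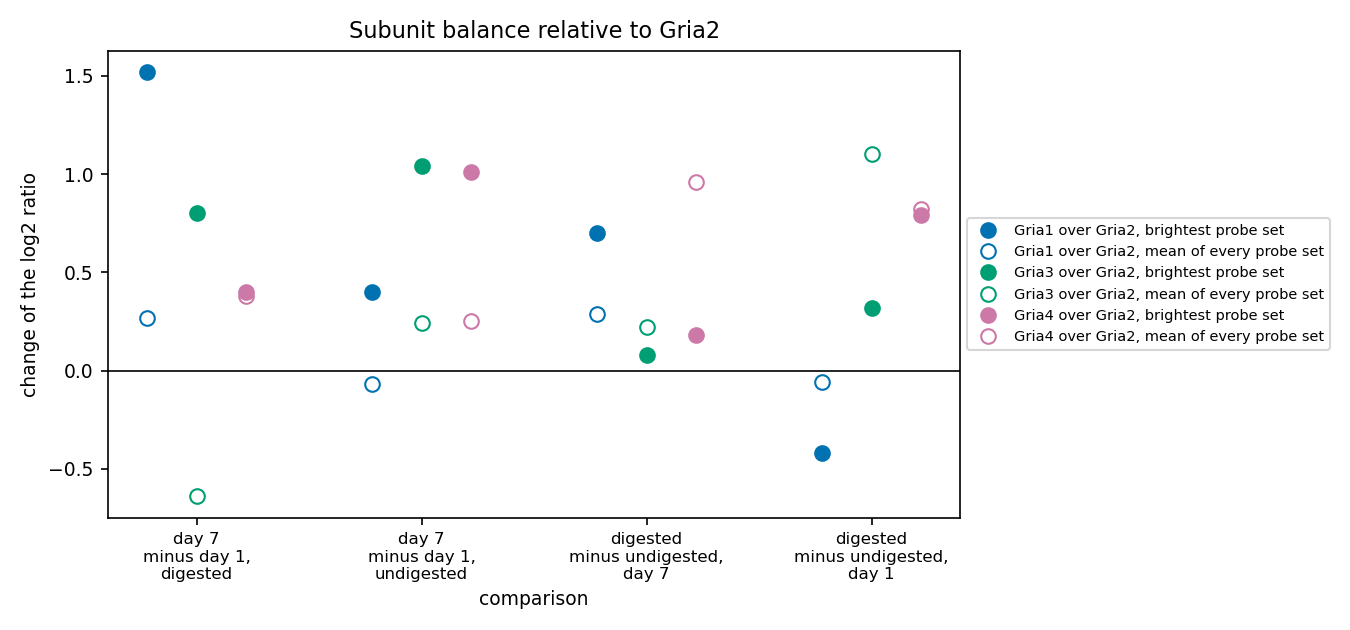
Change of the log2 ratio of Gria1, Gria3 and Gria4 to Gria2 (y axis) in each of the 4 comparisons (x axis), by the brightest probe set of each gene (filled) and by the mean over all its probe sets (open). The Gria4 to Gria2 points lie above 0 in every comparison, while the open and filled points of Gria1 and Gria3 fall on different sides of 0 in a day comparison each.

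Profiles over the 4 arrays were compared between probe sets as the root mean square difference of centred log2 values. Of the 10 probe sets 4 had no array at the floor: M36419_s_at and M38061_at of Gria2, S94371_g_at of Gria4 and S56679_s_at of Gria1. Among these, the Gria2 pair differed by 0.10 and the pairs of different genes by 0.45 to 0.56. The other profiles are set in part by the floor. S56679_s_at of Gria1 and M36421_s_at of Gria4, which had 1 array at the floor, differed by 0.14, whereas M36421_s_at differed from S94371_g_at of its own gene by 0.55. S94371_g_at differed by 0.20 from X54656_at of Gria3 and by 0.88 from S94371_at of its own gene, each with 2 arrays at the floor. X17184_at of Gria1, with 1 array at the floor, differed from M38061_at of Gria2 by 0.09.

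S94371_g_at was the 1 analysed AMPA receptor probe set whose signal spanned at least 2-fold over the arrays, and it was set against 564 analysed probe sets that each name 1 other gene. The most alike in centred log2 profile was Penk, the proenkephalin gene. Its root mean square difference was 0.15 over 4 arrays, and it read 1973 and 2012 at day 7 and 1168 and 967 at day 1, digested first. Next came Kcnk3, a potassium leak channel gene, at 0.17, with 515 and 597 at day 7 and 347 and 262 at day 1, and St13, a gene of a chaperone cofactor, at 0.18, with 2892 and 2365 at day 7 and 1646 and 1261 at day 1. These probe sets were all higher at day 7 in both states, which follows from their choice by likeness to S94371_g_at. Another Kcnk3 probe set, AF031384_at, had log2 day differences of only 0.1 in digested and 0.23 in undigested samples. The dimmer Penk probe set, rc_AI009300_at, had 2.16 and 1.13, with a digestion difference of -1.24 at day 1. The likeness thus belongs to a probe set and not to a gene. With 4 arrays, many profiles can be this close.

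Proteins that anchor AMPA receptors at synapses were sparsely covered. Of 31 genes for anchoring, trafficking and auxiliary proteins 6 had a probe set, and 3 of these were analysed, of which 0 passed 2-fold in any of the 4 comparisons. Over the 386 analysed genes 14 were higher and 19 lower past 2-fold for the day in digested samples, 31 and 22 in undigested samples, and for digestion 22 and 20 at day 7 and 9 and 6 at day 1, so that 0 of 3 stands near the background. The median log2 day difference of the 3, each by its brightest probe set, was -0.28 in digested and 0.87 in undigested samples. The undigested median is the value of 1 Nptxr probe set, rc_AI228113_s_at. Other analysed Nptxr probe sets had 0.53 (rc_AI045501_s_at) and -0.51 (AF005099_at) there, so this median hangs on the probe set chosen. Grip2, which codes for a scaffold that binds the tails of GluA2 and GluA3, read 401 and 785 at day 7 and 305 and 412 at day 1 by its analysed probe set, digested first. Its log2 day difference was 0.40 in digested and 0.93 in undigested samples, and its digestion difference -0.97 at day 7 and -0.43 at day 1, the same signs as Gria2. Its dimmer probe set disagreed for the day, with -1.57 and -1.72. Dlg4, which codes for the postsynaptic scaffold PSD-95, read 866 and 935 at day 7 and 1048 and 978 at day 1, a log2 day difference of -0.28 in digested and -0.07 in undigested samples. Grip1, named here after its values were seen, lay under the floor on all 4 arrays, between 4.07 and 44.9. None of the 3 RNA editing enzymes listed had a probe set with its symbol.

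Of 14 kinases and phosphatases that act on AMPA receptors 9 had a probe set, and 7 were analysed. The median log2 day difference of the 7 was -0.04 in digested and 0.35 in undigested samples, beside 0.05 and 0.19 over the 386 analysed genes. By the brightest probe set of each gene, which these medians also use, Fyn, a tyrosine kinase, was the 1 gene past 2-fold. It read 3385 and 6185 at day 7 and 2540 and 2377 at day 1, digested first, or 1.33-fold and 2.60-fold higher at day 7. Over the 386 analysed genes 31 were higher and 22 lower past 2-fold for the day in undigested samples, so 1 of 7 stands near the background. Other analysed probe sets of Camk2d also passed 2-fold. For rc_AA925495_at the log2 difference was 1.49 for the day in digested samples and -1.68 for digestion at day 1. For rc_AI009268_at it was -1.12 for digestion at day 7. Camk2g, a calcium and calmodulin dependent kinase subunit, had log2 day differences of 0.07 in digested and 0.94 in undigested samples.

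The related ionotropic glutamate receptors were read on the same arrays. Of 14 NMDA receptor probe sets, 3 were higher and 2 lower at day 7 in both states and 9 ran in opposite directions, beside 7, 0 and 0 of the 10 for AMPA receptors. The other 3 AMPA receptor probe sets were tied at the floor in at least 1 state, which sets these zeros. Without the floor, their log2 day differences were -0.39 and -0.19 (S94371_at), -3.09 and 0.29 (M36420_s_at), and 1.85 and -0.09 (M36418_s_at), digested first. Of 9 probe sets of kainate and delta receptor subunits and of Grina, which is not such a subunit, 3 were higher, 1 was lower and 2 ran in opposite directions. The 3 were S61973_at and S61973_g_at of Grina and AF027331_at of Grik3, which lay outside the analysed set (log2 0.59 and 0.15, digested first). Of all 1263 probe sets 28.7% were higher, 18.9% lower and 35.3% opposite. The difference between the families was not tested. Grin2a, an NMDA receptor subunit gene, had log2 day differences of 0.31 in digested and 0.44 in undigested samples and digestion differences of -0.50 at day 7 and -0.37 at day 1, signs shared with Gria2. The kainate receptor gene Grik5 had log2 day differences of -0.04 in digested and -0.10 in undigested samples, and Grina, a gene of a glutamate receptor associated membrane protein, 0.16 and 0.36. Of 5 glutamate transporters 3 had a probe set and only Slc1a3 was analysed, with log2 day differences of 0.23 in digested and -0.11 in undigested samples.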

How the data were processed

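The deposited table holds 1 signal intensity per probe set and array on a linear scale, as its values show, made by the authors with software not given in the sources used here. The trimmed mean (2% removed at each end) was 2515 or 2516 on every deposited array, so the authors appear to have scaled them. Gene symbols came from the probe table, and the identifiers of all 10 probe sets had the same symbol in a RefSeq gene table (GRCr8).

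Arrays were brought to 1 median over 1263 probe sets (59 controls left out), floored at 51.8 and taken to log2. The 632 probe sets with a mean of at least 229 were analysed. With 1 array per group, log2 differences have no test, and at least 2-fold was counted. An additive fit used limma 3.58.1 in R 4.3.3 on 1 residual and 7.76 prior degrees of freedom, and its script was tested on simulated data. Other steps used Python 3.11.15, numpy 2.4.6, pandas 2.3.3 and matplotlib 3.10.9.

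Every member probe set is named. From each neighbour list up to 4 analysed genes are named, by the smaller of the 2 day differences of like sign, and the 3 nearest profiles of each analysed member that spanned at least 2-fold. Alternatives were the values as deposited, quantile normalisation, cyclic loess, an added offset with no floor, the 40th percentile as floor, no filter and other probe sets for a subunit. The genes and lists were chosen with earlier results of these data known.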

Additional observations from a re-analysis of the deposited data

Results flagged for a closer look

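The digestion difference of 2 AMPA receptor probe sets ran in opposite directions at the 2 days. For Gria1 S56679_s_at it was 0.54 in log2 at day 7 and -0.74 at day 1, a change of 1.28. For Gria4 M36421_s_at it was 0.88 at day 7 and -0.70 at day 1, a change of 1.58, with the digested day 1 signal under the floor. These changes use all 4 arrays and were not tested. Among all 1263 probe sets 44.2% had digestion differences of opposite sign at the 2 days.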

How the results depend on the processing

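Without the filter on dim probe sets, the count past 2-fold was 242 of all probe sets and 4 of the AMPA receptor ones for the day in digested samples (51 and 0 with it), 284 and 2 in undigested samples (84 and 1), 273 and 1 for digestion at day 7 (72 and 0) and 208 and 2 at day 1 (22 and 0). More probe sets are counted by construction. With the mean over every probe set, an alternative chosen after seeing the data, the change of the Gria4 to Gria2 ratio was 0.25 for the day in undigested samples and 0.96 for digestion at day 7, against 1.01 and 0.18. For the day in digested samples, the Gria4 to Gria1 ratio change of -1.12 became 0.11 with that mean and 0.48 with the floor at the 40th percentile, and the Gria1 to Gria2 change of 1.52 became -0.07 with that floor. In undigested samples the Gria3 to Gria2 change of 1.04 became -0.38 with it. The higher floor replaces the low signals of the dim probe sets.

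The additive limma fit without the filter, also added later, gave adjusted p-values of 0.447 for the day in Gria4 S94371_g_at and 0.476 in Gria2 M36419_s_at, against 0.198 and 0.542 with it. Values as deposited moved the median log2 difference of the analysed set by -0.23 for the day in undigested samples, 0.14 for digestion at day 7 and -0.13 at day 1. Quantile normalisation moved the undigested day median by -0.17 and the day 1 digestion median by -0.13, and cyclic loess by -0.17 and -0.14. No paired analysis was possible because each group has 1 sample and the labels pair no replicates; the additive fit sets the arrays of a digestion state or day against each other, with no replicate in either. Leaving out an array would leave a group with none. The mean over the analysed probe sets of a subunit gave no value for Gria1 and Gria3, which have none. Of the 384 recomputed differences, ratio changes and counts, 335 stayed within the SD between probe sets of a gene (times the square root of 2 for ratio changes) or within 1.5 times the count, 45 moved further, and 4 ratio changes past 2-fold turned sign. Some of these could not move. The additive fit returns the mean of the 2 day differences, and M36418_s_at lay under the floor on all 4 arrays. For Gria4 and Gria2, the mean over analysed probe sets is the brightest probe set again. The 335 are thus no measure of robustness.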
